A study of Mus musculus with 12 samples.

Results

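The microglia genes described here are 39 genes that are active in microglia. Their names come from a given list, chosen with earlier results of these data known. They were picked out after 32850 RefSeq entries had been joined to gene symbols and the reads of entries with the same symbol had been added up. They are 39 of 24209 genes in the data. By role, 11 are genes of the surveying cell, 3 encode complement C1q, 8 act in phagocytosis and digestion, 6 belong to Toll-like receptor sensing, 3 encode Fc receptor parts and 8 are general leukocyte genes. Of the 39 members, 31 had more than 10 reads on average and could be tested in both experiments, and the other 8 are accounted for below.

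RNA was taken from both whole hippocampi of 12 male C57BL/6 mice in 2 experiments of 6 mice. All of them received, when 10 weeks old, an adeno-associated virus (AAV5) that expressed GFP, and gave tissue 10 weeks later. In the miR-9 experiment, 3 mice received GFP followed by a miR-9 sponge (miR-9sp mice 17, 23 and 9) and 3 received GFP alone (GFP Ctrl mice 16, 2 and 8). In the miR-34 experiment, 3 mice received GFP followed by a miR-34 sponge (miR-34sp mice 13, 18 and 3) and 3 other mice received GFP alone (GFP Ctrl mice 10, 4 and 8). A sponge is a transcript with repeated sites that bind a miRNA family and keep it from its own targets. The human synapsin promoter, which is active in neurons, drove every vector, so the sponges were directed at neurons and not at the microglia read here. The labels call the cells hippocampal neurons, but the libraries came from entire tissue, and the markers of astrocytes, oligodendrocytes, endothelial cells and microglia were all read in every mouse. The question put to these genes was whether blocking either miRNA family in neurons was accompanied by a change in the RNA of the neighbouring microglia, and whether genes of surveying microglia moved apart from phagocytic, Toll-like and Fc receptor genes.

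Microglia are the resident macrophages of the brain. Surveying microglia extend moving processes that sense nucleotides through purinergic receptors such as P2ry12 and a neuronal chemokine through Cx3cr1, and they depend on signals through Csf1r. They make the C1q proteins that tag synapses for removal, and they take up debris with receptors that signal through the adaptors Tyrobp and Fcer1g. In whole tissue, fewer microglia and less RNA per microglial cell cannot be told apart.

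The sponges bind miRNAs through the seed, bases 2 to 8 of the mature miRNA, which is shown in capitals because it defines the sites that each sponge was made to hold. The mature sequences are those of RefSeq (GRCm38.p6), 5′ to 3′. miR-9-5p has the same mature sequence at 3 loci, and miR-34a-5p and miR-34b-5p share their seed. The paper names miR-34c as a further member of that family, but its mature sequence was missing from the reference used here.
mmu-miR-9-5p: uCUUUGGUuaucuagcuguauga
mmu-miR-34a-5p: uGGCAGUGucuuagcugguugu
mmu-miR-34b-5p: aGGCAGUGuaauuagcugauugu

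Sites that match these seeds were looked for on the sense strand of the 3′ untranslated regions of GENCODE M1 transcripts, the longest region of each gene being used. The miR-9 match ACCAAAG occurred in 7 of 39 members (17.9%) and in 13.8% of the 10733 genes with such a region that could be tested in the miR-9 experiment, whereas the 39 include the 8 untested members. Those members were Cx3cr1, P2ry12, P2ry13, Selplg, Hpgds, Fcgr1 and Cd53. The miR-34 match CACTGCC occurred in 4 of 39 members (10.3%), Csf1r, C1qa, Cd180 and Cd53, and in 17.3% of those tested genes. A match extended by an A at its 3′ end was found for miR-9 in 2 members (5.13%, against 4.44% of the tested genes) and for miR-34 in 2 members (5.13%, against 6.06%). The regions searched were shorter in the members (median 938 bases) than in the tested genes (median 1190 bases). None of these shares was adjusted for length.

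Cd53, a tetraspanin of leukocytes, was the only one of the 39 members to hold the extended match of both families. Its sites and that of Selplg, the P-selectin ligand, are shown with the extended match in capitals which begins at base 1056 (Cd53, miR-9), 334 (Cd53, miR-34) and 1118 (Selplg, miR-9) of the untranslated region, between flanking bases in lower case. A match is a description of the letters and not evidence that the miRNA binds there. From mice with a GFP reporter of miRNA activity, the paper describes miR-9 as active in brain cells other than microglia and some neurons outside the hippocampus. For miR-34 it describes activity in every hippocampal cell type.
Cd53, miR-9 match: ttactatatgACCAAAGAtggcac
Cd53, miR-34 match: gcttgagatcCACTGCCAgctgct
Selplg, miR-9 match: ttttttaatcACCAAAGAgatttt

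Many genes of macrophages are switched on by PU.1, a transcription factor of the ETS family that is needed for microglia to form. Its core motif GAGGAAGT was searched on both strands (reverse ACTTCCTC) in the RefSeq promoter windows, 250 bases before to 50 bases after a gene start. Of the 29 members with a promoter in the table, 5 held the motif (17.2%), namely C1qc, Cd53, Ctss, Hpgds and Inpp5d. It was present in 3.69% of all 27025 genes with a window and in 3.20% of the 32851 windows. The windows of Cd53 (chr3:106790100-106790399, minus strand, GRCm38.p6) and of C1qc (chr4:136892865-136893164, minus strand, GRCm38.p6) are shown because the first gene stood lower in the miR-9sp mice and the second was among the most abundant members. Both hold the motif in its reverse form, in capitals, starting 6 bases after the gene start in Cd53 and at base -195 in C1qc.
Cd53 promoter: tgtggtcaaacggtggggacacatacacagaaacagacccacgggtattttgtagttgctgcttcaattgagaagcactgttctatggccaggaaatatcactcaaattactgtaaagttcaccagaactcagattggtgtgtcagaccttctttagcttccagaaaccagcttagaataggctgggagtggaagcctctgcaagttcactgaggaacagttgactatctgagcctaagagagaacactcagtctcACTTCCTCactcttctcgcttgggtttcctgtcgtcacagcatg
C1qc promoter: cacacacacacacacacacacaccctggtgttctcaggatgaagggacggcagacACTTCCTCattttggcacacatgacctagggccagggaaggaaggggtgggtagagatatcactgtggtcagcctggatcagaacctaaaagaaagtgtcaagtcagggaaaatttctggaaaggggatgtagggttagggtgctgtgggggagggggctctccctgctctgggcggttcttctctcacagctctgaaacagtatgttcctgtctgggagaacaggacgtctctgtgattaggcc

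Several members are neighbours in the genome. C1qb (chr4:136880126-136886200), C1qc (chr4:136889801-136892936) and C1qa (chr4:136895916-136898844) form a cluster, P2ry13 (chr3:59207892-59210882) lies beside P2ry12 (chr3:59216271-59262985), and Tmem119 (chr5:113793729-113800396) lies beside Selplg (chr5:113817798-113832528). These are RefSeq positions in GRCm38. P2ry12 and P2ry13 lie inside the interval of Med12l and Gpr34 inside that of Cask, and since no source used here says that counting used the strand, reads of such overlapping genes may not be separable. Lyz2 has a near-identical copy, Lyz1, which had 15 to 43 reads per mouse, so part of the small Lyz2 count could be misassigned.

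Reads of the 39 members summed to 15011 to 24204 per mouse in the miR-9 experiment, of totals of 17279620 to 24428477, and to 10690 to 16179 in the miR-34 experiment, of totals of 11029604 to 16934133. Levels are given below as CPM, counts scaled to 1000000 reads per mouse after normalisation by the trimmed mean of M values (TMM), or as CPM per kilobase of transcript where genes are compared with each other. A floor of 3 reads corresponded to 0.123 to 0.272 CPM, and such limits cover counting error only.

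The remaining 8 members could not be judged. All 29 members with 1 RefSeq entry had more than 10 reads on average, but of the 10 members with several entries only Cd68 and Unc93b1 did. Ctss (cathepsin S), Itgam (CD11b), Tlr7 and Inpp5d were listed at 0 in all 12 mice, Csf3r had 1 read in all mice together, Trem2 had 4 (2 in GFP Ctrl mouse 16 of the miR-9 experiment, 1 each in GFP Ctrl mice 4 and 8 of the miR-34 experiment and 0 in the other 9 mice), Ptprc (CD45) had 11 and Cd33 had 48. Over all genes, 57.3% of the 19472 genes with 1 entry and 35.3% of the 4737 genes with several entries passed 10 reads. The rule by which reads shared between entries were counted is not given in the sources used here, so a value at or near 0 for these 8 genes was not read as absence of their RNA, and the label of microglia rests on the other members.

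The defining markers were well above the floor. In the GFP Ctrl mice of the miR-9 experiment, the level per length was highest for C1qa (54.8 ± 2.17 CPM per kilobase, SD, n = 3), C1qc (54.2 ± 2.60) and C1qb (50.8 ± 2.70), which together form the recognition molecule of the classical complement pathway. Neither C1qa and C1qc nor C1qc and C1qb differed by more than the joint SD. These 3 genes were compared only as neighbours in this order. They were followed by the receptor Csf1r (41.9 ± 0.947), the ADP receptor P2ry12 (34.4 ± 2.18), the lysosomal protein gene Laptm5 (30.97 ± 1.39), the fractalkine receptor Cx3cr1 (28.7 ± 0.816) and the adaptor Tyrobp (26.5 ± 1.33), each of which differed from the next by more than the joint SD.

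Among the phagocytic genes Tyrobp was highest per length, among the Toll-like genes it was Ly86 (14.04 ± 2.07), which encodes the partner of Cd180, and among the Fc receptor genes it was Fcer1g (15.5 ± 0.724), the common gamma chain. Tlr2, a receptor for bacterial lipoproteins, was lowest of the 31 (0.761 ± 0.00622). Of the 30 pairs of neighbours in this order, 18 differed by more than the joint SD of both genes. In the GFP Ctrl mice of the miR-34 experiment only 9 of 30 pairs did, and C1qb (54.6 ± 4.43), C1qa (53.0 ± 3.63) and C1qc (52.7 ± 3.26) again stood at the top, followed there by Laptm5 (44.4 ± 3.90) and Csf1r (35.9 ± 0.845).

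After miR-9sp most microglia genes stood slightly lower than in GFP Ctrl, but no gene passed the test. With the edgeR quasi-likelihood test, 0 of 13045 genes (0.0%) had an adjusted p under 0.05, and hence 0 of 31 members. At an unadjusted p under 0.05, 295 genes were lower and 322 higher, and DESeq2 called 2 genes, both lower, and none of the members. Of the 31 members, 27 had a log2 fold change below 0 (87.1%), whereas 50.3% of all genes did, and the median of the members was -0.09 against -0.00062 over all genes. At an unadjusted p under 0.05, 4 members were lower (12.9% of 31, background 2.26%) and 0 were higher (background 2.47%). In 7 members every miR-9sp mouse was below every GFP Ctrl mouse (22.6%, background 5.02%), and in 0 members was every miR-9sp mouse above (background 5.21%). The count of 4 was 2 without GFP Ctrl mouse 16, 2 with DESeq2 and 7 with total counts in place of TMM, and the number below 0 stayed between 23 and 28 of 31 when single mice were left out. An exact permutation of 3 against 3 mice cannot give a two-sided p below 0.1, so such a separation in a single gene is a description. The members share cells and move together from mouse to mouse, so they are not independent observations. They were also chosen with earlier results of these data known, so their shares beside those of all genes are a description.

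**Figure D1:**
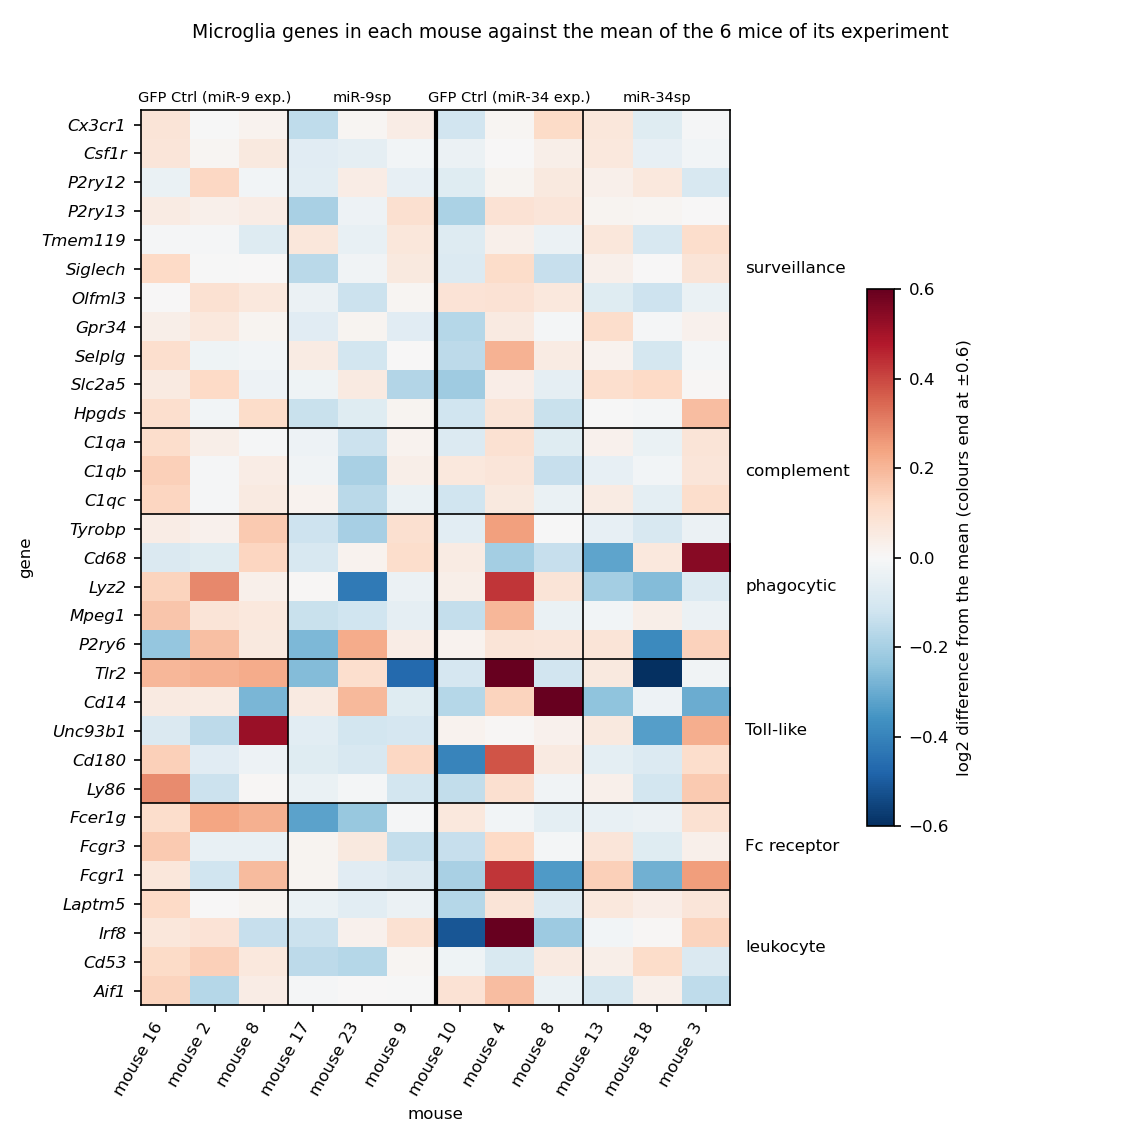
Each row is 1 of the 31 tested members and each column 1 mouse, and the colour gives the log2 difference of the CPM from the mean of the 6 mice of the same experiment, with colours ending at 0.6 in either direction. In the miR-9 experiment GFP Ctrl mouse 16 is above the mean in 26 of 31 members and miR-9sp mouse 17 in 7, whereas in the miR-34 experiment the extremes are both GFP Ctrl mice, with 28 of 31 above the mean in mouse 4 and 8 in mouse 10.

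Among the surveillance genes, Csf1r had the smallest unadjusted p. Csf1r encodes the receptor for the growth factors that keep microglia alive. Its level was 165, 158 and 164 CPM in GFP Ctrl mice 16, 2 and 8 and 150, 151 and 155 CPM in miR-9sp mice 17, 23 and 9. All 3 sponge mice lay below all 3 GFP Ctrl mice, by little. The log2 fold change was -0.09 ± 0.04 (SE; edgeR, unadjusted p = 0.0290, adjusted p = 0.970).

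Cx3cr1 was at 111, 105 and 107 CPM in GFP Ctrl and at 94.8, 106 and 108 CPM after miR-9sp, so only mouse 17 was below all of the controls (log2 fold change -0.06 ± 0.05, SE). P2ry12 was at 76.8, 86.2 and 78.0 CPM in GFP Ctrl and at 75.7, 81.4 and 76.4 CPM after miR-9sp, and the groups overlapped (-0.05 ± 0.05). Tmem119, a membrane protein gene used to tell microglia from other macrophages, was at 30.9, 30.9 and 29.4 CPM in GFP Ctrl and at 32.6, 30.1 and 32.6 CPM after miR-9sp, the only surveillance gene with a log2 fold change above 0 (0.06 ± 0.06). Olfml3, which encodes an olfactomedin-like secreted protein, was at 30.8, 32.8 and 32.2 CPM in GFP Ctrl and at 30.0, 28.2 and 31.01 CPM after miR-9sp, with 1 sponge mouse inside the control range (-0.10 ± 0.06). The other 6 surveillance genes, P2ry13, Siglech, Gpr34, Selplg, Slc2a5 and Hpgds, ranged from -0.13 (Hpgds, a prostaglandin D synthase) to -0.04 (Selplg), all with overlapping groups.

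All 3 C1q genes had a log2 fold change below 0, from -0.12 to -0.09, and none separated the groups. C1qa was at 61.9, 58.9 and 57.2 CPM in GFP Ctrl and at 56.3, 52.6 and 58.3 CPM after miR-9sp. Mouse 23 was lowest in all 3 C1q genes. Mouse 9 reached the control range for C1qa and C1qb, and mouse 17 did so for C1qc.

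The smallest unadjusted p values were those of a phagocytic and an Fc receptor gene. Mpeg1 encodes perforin-2, a pore-forming protein of macrophages. It was at 61.6, 58.0 and 57.4 CPM in GFP Ctrl and at 50.1, 50.6 and 53.0 CPM after miR-9sp. All sponge mice lay below all controls, with a gap wider than the spread of the sponge mice, and the log2 fold change was -0.20 ± 0.05 (SE; edgeR, unadjusted p = 0.00169, adjusted p = 0.970).

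Fcer1g passes the signal of several Fc receptors into the cell. It was at 9.64, 10.5 and 10.4 CPM in GFP Ctrl and at 7.15, 7.65 and 8.91 CPM after miR-9sp, again without overlap and with mouse 9 closest to the controls. Its log2 fold change was -0.36 ± 0.10 (SE; edgeR, unadjusted p = 0.00588, adjusted p = 0.970). The receptors that pair with it were closer to 0, with -0.05 ± 0.09 for Fcgr3 and -0.09 ± 0.13 for Fcgr1, and both overlapped between groups.

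Of the other phagocytic genes, Tyrobp, the adaptor of Trem2, was at 14.7, 14.5 and 15.9 CPM in GFP Ctrl and at 13.0, 12.4 and 15.2 CPM after miR-9sp, with mouse 9 inside the control range (-0.14 ± 0.09). Lyz2, a lysozyme of macrophages, was at 8.02, 8.92 and 7.46 CPM in GFP Ctrl and at 7.36, 5.46 and 7.12 CPM after miR-9sp. Its groups did not overlap, with mouse 23 far below the other sponge mice (-0.29 ± 0.13, edgeR unadjusted p = 0.0532). Cd68, a lysosomal membrane gene, and P2ry6, a UDP receptor linked to phagocytosis, had log2 fold changes of 0.02 ± 0.13 and 0.00 ± 0.17.

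Among the Toll-like genes, Tlr2 was at 2.16, 2.17 and 2.19 CPM in GFP Ctrl and at 1.57, 2.02 and 1.36 CPM after miR-9sp. The groups were apart, but the gene is near the bottom of the tested range and its log2 fold change of -0.40 ± 0.19 missed the limit (edgeR, unadjusted p = 0.0597). Ly86 was at 16.3, 12.2 and 13.5 CPM in GFP Ctrl and at 13.0, 13.3 and 12.4 CPM after miR-9sp, where a single control mouse, 16, was high. Unc93b1, which carries Toll-like receptors to endosomes, was at 1.66 to 2.66 CPM in GFP Ctrl because of mouse 8. Cd14, a co-receptor for lipopolysaccharide, had the highest log2 fold change of all members (0.10 ± 0.17), and Cd180 was at -0.03 ± 0.12.

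Cd53 led the leukocyte genes. It was at 12.9, 13.1 and 12.4 CPM in GFP Ctrl and at 10.7, 10.6 and 11.996 CPM after miR-9sp, without overlap (-0.21 ± 0.08, SE; edgeR, unadjusted p = 0.0303, adjusted p = 0.970). Laptm5 was at 78.1, 72.0 and 72.7 CPM in GFP Ctrl and at 69.9, 68.9 and 70.1 CPM after miR-9sp, apart from the controls by a narrow gap (-0.09 ± 0.04, edgeR unadjusted p = 0.0620). Aif1, which encodes the microglial marker Iba1, was at 6.43, 5.22 and 6.05 CPM in GFP Ctrl and at 5.83, 5.87 and 5.87 CPM after miR-9sp, and the transcription factor gene Irf8 had a log2 fold change of -0.02 ± 0.11. With any single mouse left out, the unadjusted edgeR p stayed under 0.05 for Mpeg1 (0.00214 to 0.0110) and Fcer1g (0.00208 to 0.0280) but reached 0.0931 for Cd53 and 0.103 for Csf1r.

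**Figure D2:**
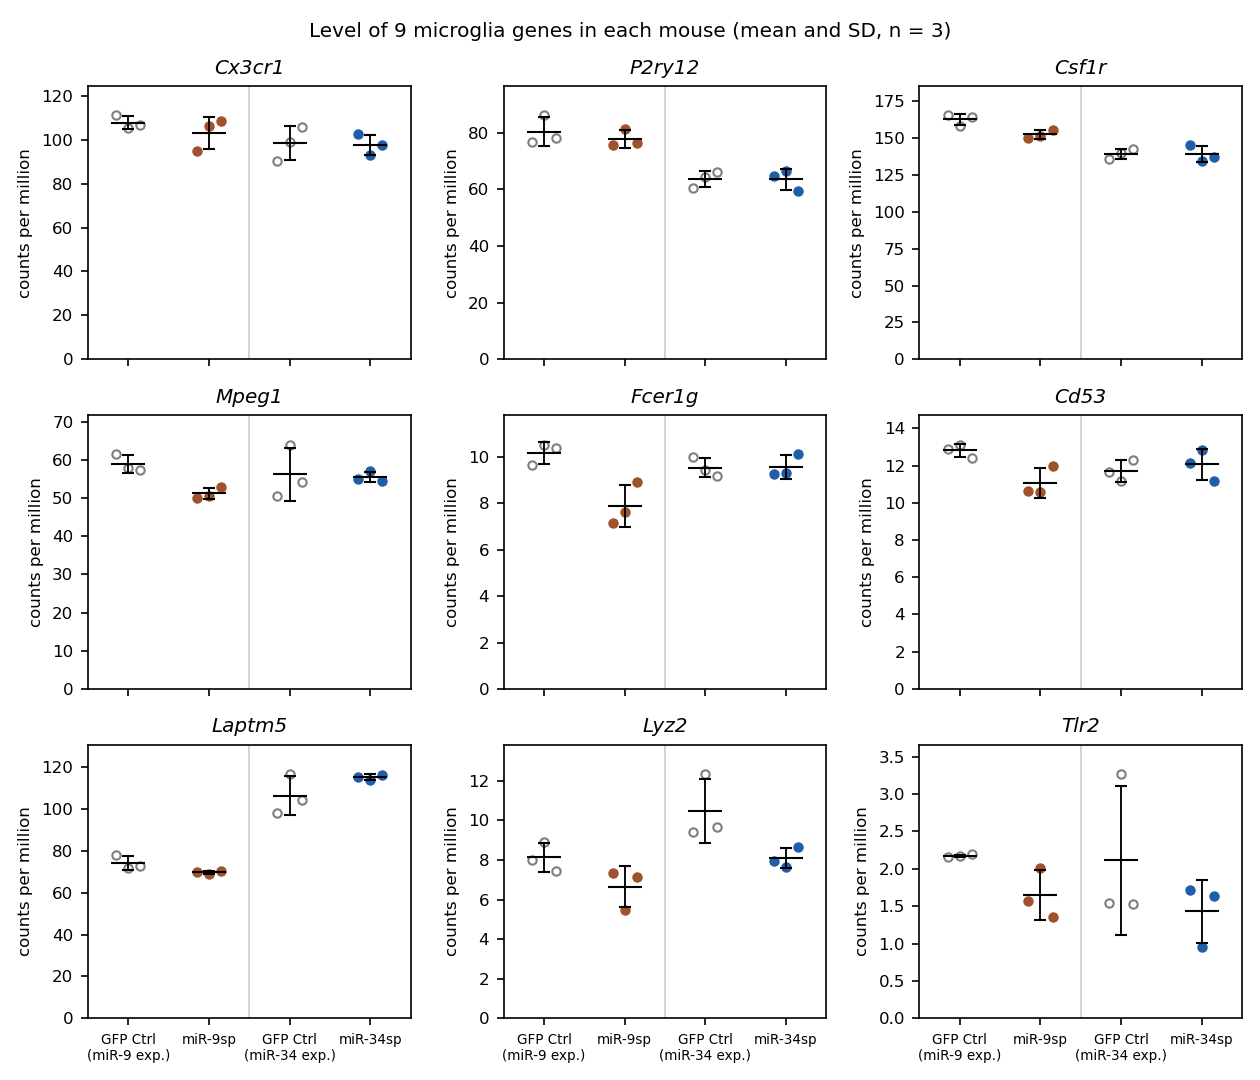
Each panel gives the CPM of 1 gene in the 12 mice, with open circles for GFP Ctrl, filled circles for the sponge, and a bar for the mean and SD of 3 mice; each axis starts at 0. Fcer1g and Mpeg1 show miR-9sp mice below their GFP Ctrl mice and no such gap in the miR-34 experiment, while Laptm5 differs mainly between the experiments.

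The criterion in the study's methods, an unadjusted p under 0.05 without pairing and a ratio of means above 1.2 or below its inverse, was met on the lower side by 2 members, Fcer1g (ratio 0.764) and Tlr2 (ratio 0.747). That was 6.45% of 31 members, against 0.971% of the genes in that comparison. On the higher side 0 members met it (background 0.466%). As computed here it called 127 genes lower and 61 higher of 13083. The paper reports fewer in each direction, so a member named here need not be among the genes the study called. Csf1r, Mpeg1 and Cd53 had ratios closer to 1 than the limit, so the 2 ways of testing named different genes, with Fcer1g in both.

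After miR-34sp the microglia genes showed no common direction. The edgeR test called 8 of 12492 genes (0.064%), all lower, and 0 of the 31 members. Of the members, 14 had a log2 fold change below 0 (45.2%), against 50.3% of all genes, and their median was 0.00290. At an unadjusted p under 0.05, 2 members were lower, Lyz2 and Olfml3 (6.45%, background 3.72%), and 0 were higher (background 2.71%). The same 2 genes were the only members with every miR-34sp mouse below every GFP Ctrl mouse (background 5.76%), and 0 members had every sponge mouse above (background 5.8%). The criterion of the methods was met by 0 members in either direction (background 1.22% lower and 0.784% higher).

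Lyz2 was at 9.40, 12.3 and 9.69 CPM in GFP Ctrl mice 10, 4 and 8 and at 7.95, 7.67 and 8.67 CPM in miR-34sp mice 13, 18 and 3. The control mouse 4 stood far above the others, and without it the log2 fold change of -0.36 ± 0.13 (edgeR, unadjusted p = 0.0184, adjusted p = 0.671) was -0.23 (unadjusted p = 0.101). Lyz2 thus lay below its own controls without overlap in both experiments, at -0.29 and -0.36. Olfml3 was at 31.3, 31.4 and 30.8 CPM in GFP Ctrl and at 28.1, 27.1 and 28.8 CPM after miR-34sp, a small difference with little spread in either group (-0.15 ± 0.06; edgeR, unadjusted p = 0.0291, adjusted p = 0.714).

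The 4 genes with an unadjusted p under 0.05 after miR-9sp were not separated from their controls here. Fcer1g was at 9.99, 9.44 and 9.18 CPM in GFP Ctrl and at 9.25, 9.30 and 10.2 CPM after miR-34sp (0.00290 ± 0.11). Mpeg1 was at 50.5, 64.0 and 54.2 CPM in GFP Ctrl and at 55.1, 57.0 and 54.4 CPM after miR-34sp (-0.02 ± 0.08). Csf1r was at 136, 139 and 142 CPM in GFP Ctrl and at 145, 134 and 137 CPM after miR-34sp, and Cd53 was at 11.7, 11.2 and 12.3 CPM in GFP Ctrl and at 12.2, 12.8 and 11.2 CPM after miR-34sp. All 4 overlapped between groups.

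The defining markers of microglia lay close to their controls in this experiment. Cx3cr1 was at 90.4, 98.7 and 106 CPM in GFP Ctrl and at 102, 92.9 and 97.4 CPM after miR-34sp. P2ry12 was at 60.4, 64.3 and 66.1 CPM in GFP Ctrl and at 64.8, 66.3 and 59.4 CPM after miR-34sp. Both log2 fold changes were close to 0 (-0.00680 ± 0.06 and -0.00112 ± 0.06). Tmem119 was at 30.3, 32.7 and 31.2 CPM in GFP Ctrl and at 33.5, 29.9 and 34.4 CPM after miR-34sp, with 2 sponge mice above the controls and 1 below. C1qa was at 54.8, 61.9 and 55.3 CPM in GFP Ctrl and at 59.1, 56.6 and 61.3 CPM after miR-34sp. C1qb was at 60.5, 60.8 and 52.5 CPM in GFP Ctrl and at 56.0, 57.2 and 60.8 CPM after miR-34sp. The 3 Fc receptor genes were all at or just above 0 (0.00290 to 0.07), the reverse of their side in the miR-9 experiment.

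Laptm5 was at 98.2, 117 and 104 CPM in GFP Ctrl and at 115, 114 and 116 CPM after miR-34sp, with control mouse 4 above all sponge mice and the other controls below them (0.12 ± 0.06). Tyrobp was at 15.4, 19.1 and 16.1 CPM in GFP Ctrl and at 15.5, 15.1 and 15.7 CPM after miR-34sp. Ly86 was at 14.98, 17.7 and 16.3 CPM in GFP Ctrl and at 16.9, 15.3 and 18.5 CPM after miR-34sp, and Aif1 was at 7.78, 8.35 and 7.14 CPM in GFP Ctrl and at 6.82, 7.49 and 6.60 CPM after miR-34sp, each with overlap. Tlr2 was at 1.54, 3.27 and 1.53 CPM in GFP Ctrl and at 1.72, 0.948 and 1.63 CPM after miR-34sp. Its log2 fold change of -0.50 ± 0.34 was the lowest of the members, and it was -0.07 without control mouse 4.

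Control mouse 4 of the miR-34 experiment stood out among the microglia genes. It was the highest of the 6 mice in 16 of 31 members, while control mouse 10 was the lowest in 13. Irf8, a transcription factor that microglia need, was at 10.7 CPM in mouse 4 against 4.92 in mouse 10 and 6.03 in mouse 8. Fcgr1, the high-affinity Fc receptor, was at 6.80 CPM in mouse 4 against 4.41 and 3.99. The spread between GFP Ctrl mice, as the median coefficient of variation over the 31 members, was 8.38% in the miR-34 experiment and 4.93% in the miR-9 experiment, and it was 5.68% in miR-34sp and 7.09% in miR-9sp mice.

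**Figure D3:**
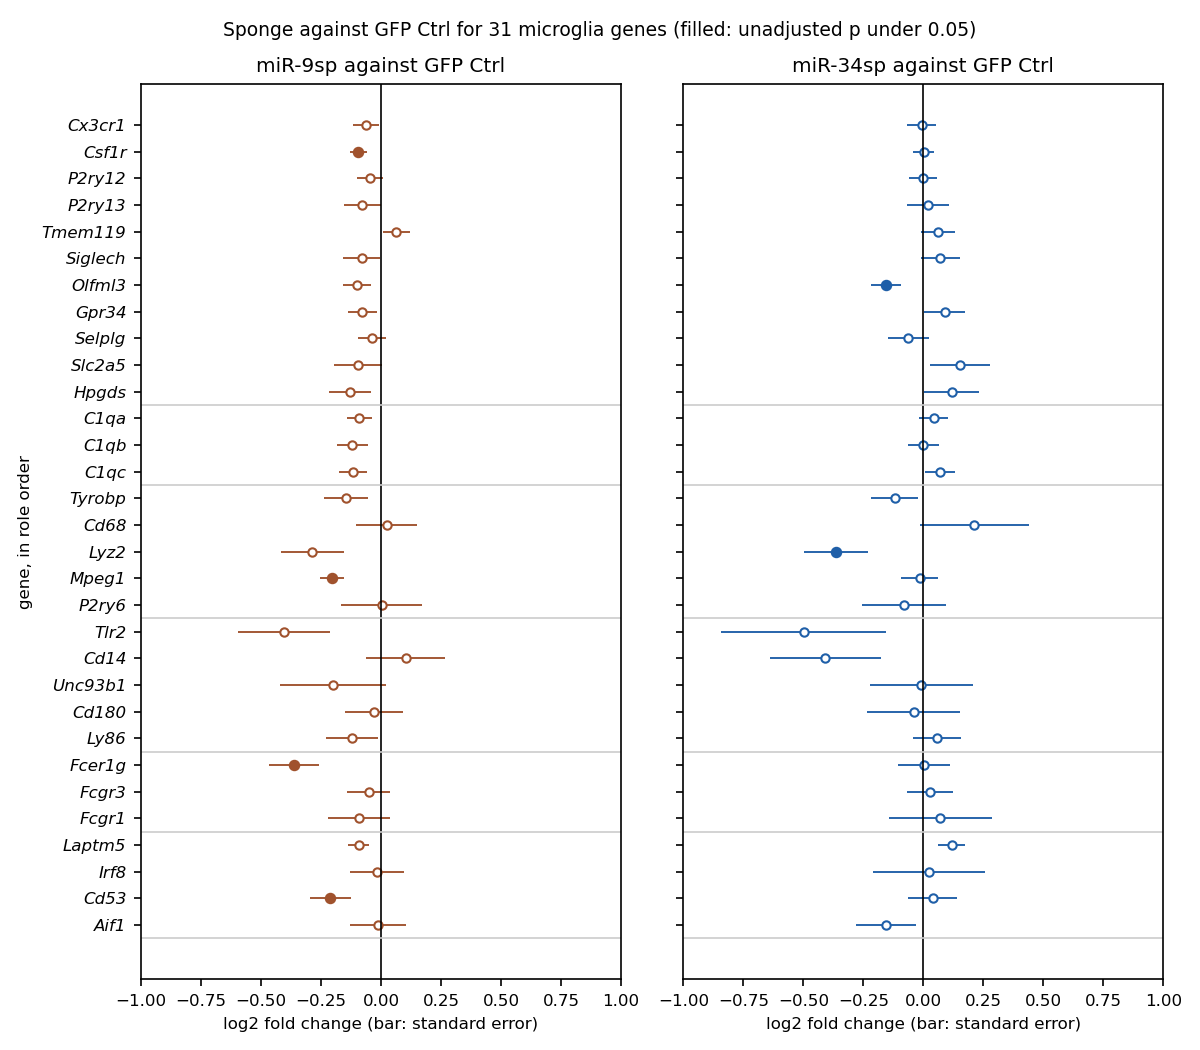
Points give the log2 fold change of each of the 31 tested members against the GFP Ctrl mice of the same experiment, with the standard error as a bar and filled points for an unadjusted edgeR p under 0.05. In the miR-9 panel 27 of 31 points lie left of 0 and 4 are filled, and in the miR-34 panel 14 of 31 lie left of 0 and 2 are filled.

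Whether the sponges differed in their effect was put to a test of its own, since a p on one side of a limit in 1 experiment only does not show a difference. In a model of all 12 mice, 0 of 12835 genes (0.0%) had an adjusted p under 0.05, so 0 of 31 members did. DESeq2 called 1 gene lower and 4 higher there, and 327 genes were lower and 456 higher at an unadjusted edgeR p under 0.05. At an unadjusted p under 0.05, 2 members had a lower effect of miR-9sp than of miR-34sp, Fcer1g (-0.36 ± 0.14, edgeR unadjusted p = 0.0220) and Laptm5 (-0.21 ± 0.08, edgeR unadjusted p = 0.0152), or 6.45% of 31 (background 2.55%), and 0 had a higher one (background 3.55%). The adjusted p was 0.767 and 0.761. The first count was 7 members without control mouse 4 of the miR-34 experiment. The difference for Cd53, which holds matches of both miRNA families, was -0.25 ± 0.12 (edgeR, unadjusted p = 0.0613). Whether those matches had a part in it was not tested.

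Levels of the members also differed between the GFP Ctrl mice of the experiments, where 3243 of 12878 genes (25.2%) had an adjusted p under 0.05. That was true of 5 of the 31 members (16.1%), below the share over all genes. Laptm5 (-0.55 ± 0.06), Aif1 (-0.43 ± 0.13) and Lyz2 (-0.40 ± 0.13) were lower in the miR-9 experiment, and P2ry12 (0.30 ± 0.06) and Csf1r (0.19 ± 0.04) were higher. Of the 11 tested members with transcripts shorter than 1500 bases, 7 were lower in the miR-9 experiment (median log2 difference -0.16), and of the 20 longer ones 9 were (median 0.03). No such split was made over all genes, so whether these shares are particular to the members was not tested. The experiments used different mice, and what else differed between them cannot be told apart from the groups, which is why each sponge was set only against its own controls.

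The rule asked how surveillance genes compared with phagocytic, Toll-like and Fc receptor genes within a mouse. In the miR-9 experiment, the summed level of the 11 surveillance genes was 549, 542 and 539 CPM in GFP Ctrl mice 16, 2 and 8 and 504, 521 and 532 CPM in miR-9sp mice 17, 23 and 9. The summed level of the phagocytic, Toll-like and Fc receptor genes was 152, 143 and 146 CPM in GFP Ctrl and 129, 130 and 135 CPM after miR-9sp. Both sums were lower in every sponge mouse than in every control, the first with a ratio of group means of 0.955 and the second of 0.894.

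Their quotient was accordingly higher in the sponge mice, at 3.91, 4.00 and 3.95 against 3.62, 3.79 and 3.70 in GFP Ctrl. The separation rests on sums that abundant genes dominate. By the median log2 fold change, in which every gene counts the same, the surveillance genes (-0.08) and the phagocytic, Toll-like and Fc receptor genes (-0.12) differed by 0.04, and leaving out single mice moved that difference between -0.00307 (without control mouse 8) and 0.09 (without control mouse 2). In the miR-34 experiment the quotient was 3.35, 2.96 and 3.41 in GFP Ctrl mice 10, 4 and 8 and 3.44, 3.35 and 3.19 in miR-34sp mice 13, 18 and 3, with overlapping groups. The highest quotient was that of sponge mouse 13. The lowest quotient belonged to control mouse 4.

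**Figure D4:**
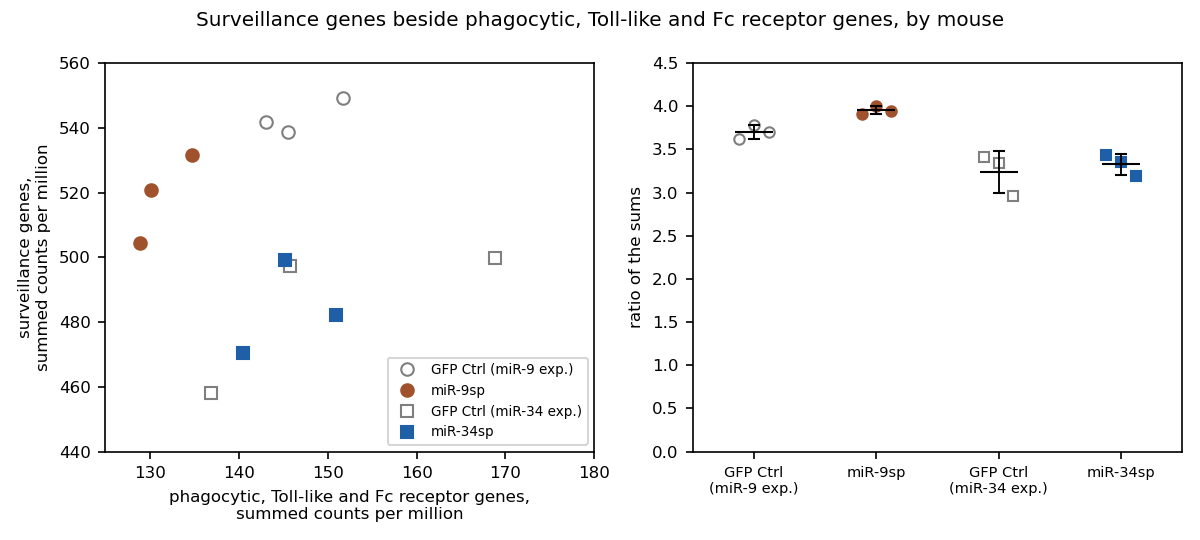
The left panel sets the summed CPM of the surveillance genes (vertical) against that of the phagocytic, Toll-like and Fc receptor genes (horizontal) for each of the 12 mice, on axes that do not start at 0, and the right panel gives the ratio of both sums with the mean and SD of 3 mice. The 3 miR-9sp mice lie at 3.91 to 4.00 and their GFP Ctrl mice at 3.62 to 3.79, while the miR-34sp and GFP Ctrl mice of the other experiment overlap.

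By role, the ratio of summed means of miR-9sp to GFP Ctrl was 0.927 for complement, 0.883 for phagocytic genes, 0.932 for Toll-like genes, 0.896 for Fc receptor genes and 0.935 for leukocyte genes, and only the Toll-like sums overlapped between groups. For miR-34sp those ratios were 1.02, 0.953, 0.961, 1.01 and 1.06, all with overlap. Over all members the sum was 985, 948 and 950 CPM in GFP Ctrl and 889, 890 and 927 CPM after miR-9sp (ratio 0.939), and 885, 998 and 936 CPM in GFP Ctrl and 960, 921 and 959 CPM after miR-34sp (ratio 1.01).

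Other genes of microglia that are not members were read from a second list of 40 genes, which includes Sall1, Spi1 (the gene of PU.1) and Fcrls. Of its 29 genes tested after miR-9sp, 21 had a log2 fold change below 0, with a median of -0.05, and 0 were lower or higher at an unadjusted p under 0.05. Their summed level overlapped between groups (440 to 460 CPM after miR-9sp and 457 to 487 CPM in GFP Ctrl). After miR-34sp, 13 of 29 were below 0 with a median of 0.00513, and 2 were lower at an unadjusted p under 0.05 (3.72% of all genes were), Ltc4s (-0.64 ± 0.24) and Alox5ap (-0.38 ± 0.17), both of leukotriene synthesis.

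The pathway around the members was read from lists of ligands and signalling partners and of Toll-like receptor signalling. Of 12 ligand and signalling genes tested after miR-9sp, 7 were below 0, with 1 lower at an unadjusted p under 0.05 (2.26% of all genes were), Cd200 (-0.13 ± 0.04), the neuronal ligand that restrains microglia. After miR-34sp 5 of 12 were below 0 and 2 were lower at that limit (3.72% of all genes were), Clu (-0.11 ± 0.03) and Gas6 (-0.17 ± 0.05), which both bind material to be cleared. Of the Toll-like signalling genes, 11 of 18 were below 0 after miR-9sp, with Traf6 (-0.11 ± 0.05) at that limit. After miR-34sp 14 of 17 were below 0 (50.3% of all genes were), with 3 at that limit, Lbp (-1.49 ± 0.27), Hsp90b1 (-0.10 ± 0.04) and Nfkb1 (-0.17 ± 0.07). All of these genes missed the adjusted test in both experiments.

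Markers of other cells moved with the groups in part. In the miR-9 experiment the summed level of 10 neuron markers was 4473 to 4661 CPM in miR-9sp mice. It was 4090 to 4369 CPM in GFP Ctrl mice, without overlap (ratio 1.07), and 0 of the 9 tested were below 0 (median 0.06). Slc17a7 (0.13 ± 0.05, SE) was higher at an unadjusted edgeR p under 0.05 (2.47% of all genes were). Its mean was 2536 CPM after miR-9sp and 2323 CPM in GFP Ctrl, of mean sums of 4540 and 4259 CPM. The neuron sums thus rest largely on 1 gene. In 2 of the 9 tested neuron genes every miR-9sp mouse was above every GFP Ctrl mouse (5.21% of all genes). Of 9 oligodendrocyte genes 8 were below 0 (50.3% of all genes were), with a median of -0.11 beside -0.09 for the 31 microglia members. The ratio of the oligodendrocyte sums was 0.933 beside 0.939 for the members, but these sums overlapped between groups. Of 9 astrocyte genes 5 were below 0 (median -0.00868), as was 1 of 7 endothelial genes (median 0.05), also with overlapping sums. After miR-34sp 6 of 9 neuron genes (median -0.03), 9 of 9 astrocyte genes (median -0.05), 1 of 9 oligodendrocyte genes (median 0.05) and 5 of 7 endothelial genes (median -0.12) were below 0, all with overlapping sums. At an unadjusted edgeR p under 0.05, Gfap of the astrocyte list (-0.19 ± 0.05) and Kdr of the endothelial list (-0.23 ± 0.06) were lower there. The part of these shifts in the microglia genes was not tested.

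Genes of blood cells were at low levels or listed at 0, which was not read as absence of those cells. The 13 lymphocyte genes summed to 1.73 to 2.96 CPM over all 12 mice with Cd8a at 0. Of 13 monocyte and neutrophil genes, 11 were listed in the data and summed to 5.75 to 14.5 CPM with S100a9 at 0. The 7 red blood cell genes summed to at most 0.105 CPM. The monocyte and neutrophil sums overlapped between groups in the miR-9 experiment but were 11.5 to 13.1 CPM after miR-34sp and 13.3 to 14.5 CPM in GFP Ctrl. Most of their reads were those of Ly6c2, with 1635 over all 12 mice, followed by Ccr2 with 130. Only 1 gene of the list could be tested in the miR-34 experiment, so the sums describe mainly 1 gene and not these cell types. In the miR-34 experiment the choroid plexus genes summed to 653 to 2387 CPM in GFP Ctrl mice. In miR-34sp mice they summed to 74.0 to 153 CPM, without overlap (ratio 0.0732). Of the 9 tested, 8 were lower at an unadjusted edgeR p under 0.05 (3.72% of all genes were). Of these, 4 were among the 8 of 12492 genes called with an adjusted p under 0.05. The smallest p values were those of Ttr (-4.34 ± 0.49, SE), Tmem72 (-3.83 ± 0.48) and Aqp1 (-3.63 ± 0.48). Their adjusted edgeR p values were 0.0278, 0.0370 and 0.0384. The part of both lists in the values of Lyz2, Olfml3 and Tlr2 in that experiment was not tested. In the miR-9 experiment the choroid plexus sums were 883, 71.8 and 55.9 CPM in miR-9sp mice 17, 23 and 9. The highest GFP Ctrl sum was 744 CPM, in mouse 2, and the groups overlapped (ratio 0.871). Of the 8 tested, 0 were lower or higher at an unadjusted edgeR p under 0.05. Mouse 17 was the lowest of the 6 mice in 11 of 31 members and mouse 23 in 10. The part of the choroid plexus genes in the member values there was not tested.

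**Figure D5:**
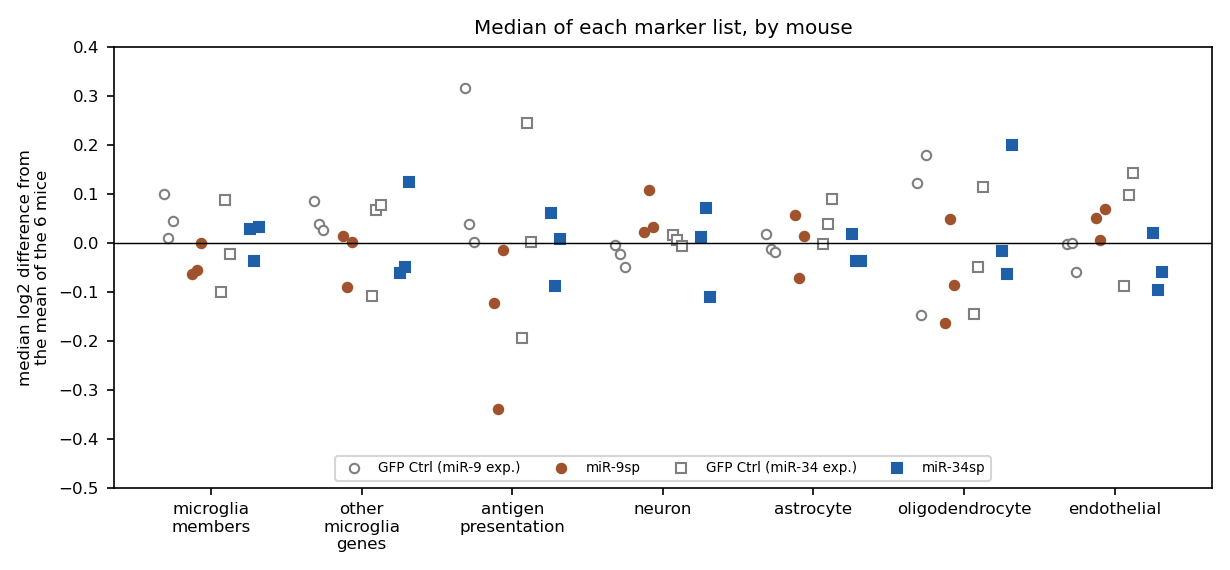
Each point is 1 mouse, and its height is the median log2 difference of the tested genes of a list from the mean of the 6 mice of the experiment, with circles for the miR-9 and squares for the miR-34 experiment and open symbols for GFP Ctrl. The 3 miR-9sp mice lie at or below 0 for the microglia members and above 0 for the neuron genes, and for the microglia members the GFP Ctrl mice of the miR-34 experiment are spread from below to above their sponge mice.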

How the data were processed

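Whole-hippocampus RNA of 12 mice was sequenced by the study as poly-A libraries with 50-base single-end reads. The authors deposited raw counts per RefSeq entry for each mouse, with the entry length in bases as a value of its own. The submitters' processing notes name STAR and mm10, whereas the methods name mm9. The counting tool, its rule for reads shared between entries and its use of strand are not given in the sources used here. Column names contain totRNA in the miR-9 experiment alone.

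Of 32850 entries, 98.7% matched a symbol, and counts were summed to 24209 genes. Entries without a symbol kept their own name and held 0.898% to 2.31% of the counts. Genes with more than 10 scaled reads on average were tested with edgeR 4.0.16 (TMM, quasi-likelihood F test, Benjamini-Hochberg over all genes tested) in R 4.3.3, each sponge against the 3 GFP Ctrl mice of its experiment, and in 1 model of 12 mice for the difference between sponges. Total counts were 17279620 to 24428477 per mouse in the miR-9 and 11029604 to 16934133 in the miR-34 experiment. CPM was computed here from TMM-scaled counts, and per kilobase with the length of the entry with most reads. Neighbours in an order of levels were called apart when they differed by more than the root of their summed squared SDs.

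Alternatives were DESeq2 1.42.0, other size factors and filters, 1 entry per gene, 1 model for all mice, leaving out each mouse, and the criterion of the methods, a test on scaled counts with a ratio limit and more than 10 scaled reads in GFP Ctrl. The scripts were tested on simulated data. Tables and figures used Python 3.11.15, pandas 2.3.3, scipy 1.17.1 and matplotlib 3.10.9.

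The members and all gene lists were chosen with earlier results of these data known. Values of every mouse were given for members with an unadjusted edgeR p under 0.05 in either experiment, members that met the criterion of the methods, the member highest per length in each role, and Cx3cr1, P2ry12, Tmem119, Aif1, Csf1r and Trem2. From every other list, at most 3 genes with the smallest unadjusted p under 0.05 were named. Irf8, Fcgr1 and Unc93b1 were given by mouse after their values had been seen. Replicates are separate mice. Sequences came from RefSeq (GRCm38.p6) and, for untranslated regions, from GENCODE M1 transcripts, and served for names and letters only.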

Additional observations from a re-analysis of the deposited data

How the results depend on the processing

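The median of the members after miR-9sp was -0.09 and lay between -0.10 and -0.08 when single mice were left out, and no result changed its direction with a call. No paired analysis was possible because the labels tie no mouse of one group to a mouse of another and the groups compared share at most 1 number. The cause of the following changes was not tested. For miR-9sp, genes called lower (0) were 2 with DESeq2 and 2 with every gene of at least 1 read, and 0 to 1 without single mice, as were genes called higher. Members lower at an unadjusted p under 0.05 (4) were 2 with DESeq2, 7 with total counts, 2 by the criterion of the methods and 2 to 6 without single mice (2 without GFP Ctrl mouse 16). The difference in medians between surveillance and phagocytic, Toll-like and Fc receptor genes was -0.00307 to 0.0898 without single mice. For miR-34sp, genes called lower (8) were 0 in 1 model of 12 mice, 35 with DESeq2, 4 with RLE size factors, 4 with total counts, 4 with the top entry of each gene, 1 with over 10 reads in every mouse, 66 with every gene of at least 1 read and 0 to 57 without single mice (57 without GFP Ctrl mouse 10, 1 without mouse 8, 0 without mouse 4 or any sponge mouse). Genes called higher (0) were 1 with DESeq2 and 15 with every gene of at least 1 read. Members lower (2) were 1 with DESeq2, 0 by the criterion and 0 to 2 without single mice (0 without GFP Ctrl mouse 4 or sponge mouse 13 or 18), and members higher (0) were 1 in 1 model, 1 with every gene of at least 1 read and 0 to 2 without single mice (2 without GFP Ctrl mouse 4). For the difference between sponges, genes called lower (0) were 1 with DESeq2 and 1 with every gene of at least 1 read, genes called higher (0) were 4, 3 and, without single mice, 0 to 1. Members lower (2) were 1 with DESeq2, 4 with every gene of at least 1 read, 6 with total counts and 1 to 7 without single mice (7 without GFP Ctrl mouse 4 of the miR-34 experiment, 1 without GFP Ctrl mouse 16), members higher (0) were 0 to 1, and the median (-0.10) was -0.18 to -0.0656. Between the GFP Ctrl groups, genes called higher were 2404 with total counts and 962 to 1321 without single mice, members called (5) were 3 with DESeq2, 8 with total counts and 3 to 6 without single mice, members lower at an unadjusted p (3) were 5 with every gene of at least 1 read and 2 to 6 without single mice, and members higher (6) were 3 with DESeq2 and 3 to 6 without single mice. At these depths 3 reads equal 0.123 to 0.272 CPM, which limits Tlr2, Cd14 and Unc93b1 most.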

Other observations

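Genes of antigen presentation, which microglia share with blood-derived cells, stood lower after miR-9sp. All 8 tested genes of the list had a log2 fold change below 0, with a median of -0.26, and 5 were lower at an unadjusted edgeR p under 0.05 (2.26% of all genes were). The smallest unadjusted p values were those of the class II genes H2-Ab1 (-0.85 ± 0.28, SE) and H2-Eb1 (-0.58 ± 0.21) and of B2m (-0.19 ± 0.07), the light chain of class I molecules. None passed the adjusted test (adjusted p = 0.970). Their summed level was 226, 193 and 189 CPM in GFP Ctrl mice 16, 2 and 8 and 173, 164 and 188 CPM in miR-9sp mice 17, 23 and 9. Without single mice, an alternative chosen after seeing the data, the count of 5 ranged from 0 (without GFP Ctrl mouse 16) to 6, with 1 without miR-9sp mouse 23 and 3 without mouse 17, and the median ranged from -0.35 to -0.17. After miR-34sp, 5 of 8 were below 0 with a median of -0.06, and 0 were lower or higher at that limit.

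Of 11 tested genes that rise in microglia around amyloid or dying cells, 8 were below 0 after miR-9sp. Cd9 (-0.15 ± 0.05), Cd52 (-0.95 ± 0.29) and Itgax (-1.03 ± 0.44) were lower at an unadjusted edgeR p under 0.05 (2.26% of all genes were), the last 2 at mean levels near or below 1 CPM. After miR-34sp 9 of 11 were below 0, with Ctsd (-0.12 ± 0.04) at that limit (3.72% of all genes were). The 5 tested genes of perivascular macrophages, which sit along vessels, were all above 0 after miR-9sp (median 0.39), with Lyve1 (0.72 ± 0.32) higher at that limit (2.47% of all genes were), but their summed level overlapped between groups, at 26.5 to 41.5 CPM after miR-9sp and 27.5 to 34.6 CPM in GFP Ctrl.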
